A study of Homo sapiens with 60 samples.

Results

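The comparison described here set 1321N1 cells exposed to arsenic for 12 h against cells left without metal for as long, across every gene with enough counts. It used 6 of the 60 libraries of the series, the 3 titled As 12 h and the 3 titled nt 12 h. 1321N1 is an established human line derived from an astrocytoma, a brain tumor of glial origin. Arsenic was given as sodium metaarsenite, a salt of trivalent arsenite, at 2.55 µM in full medium, and the non-treated cells received no metal. The labels name no genetic change and no second agent in either group. The other libraries held cells exposed to arsenic, 2.3 µM cadmium chloride or 20 µM mercury chloride for 5 periods from 1.5 to 24 h, with 3 non-treated libraries at each time, which makes 20 groups in all. The study chose the 3 concentrations to be about equally toxic. The labels call the triplicates technical, so p-values here measure the spread between libraries and not between independent experiments.

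Trivalent arsenic binds closely spaced thiols of proteins and of glutathione. Such binding to KEAP1 releases the transcription factor NRF2, which drives genes for glutathione synthesis, heme breakdown and iron storage through antioxidant response elements (AREs). Misfolded proteins activate heat shock factor 1 and the cytosolic chaperones, and stress kinases that phosphorylate eIF2α favor translation of ATF4, the factor of the integrated stress response, which acts on genes of amino acid supply through amino acid response elements (AAREs). Zinc and cadmium act through the metal-responsive factor MTF1 and metal response elements (MREs) on the metallothioneins. Astrocytes are the main glutathione suppliers of the brain.

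The 6 libraries held 3216686 to 3769847 counted reads each, and between 15675 and 15982 genes were detected in each. Levels are given in CPM, counts scaled to a common normalized library size, and 3 counts correspond to 0.786 to 0.926 CPM in these libraries. Mitochondrially encoded genes took 5.16 to 6.43% of counts. The astrocyte markers VIM, CD44, SOX9 and GJA1 were present, whereas GFAP, S100B, AQP4, ALDH1L1 and FABP7 were at 0 in all 6 libraries. For ALDH1L1, which overlaps another gene on its strand, the counting leaves out shared reads, so its 0 does not show that it is absent. SLC1A2 and SLC1A3, also on the list of astrocyte markers, reached at most 3 and 5 counts. The summed level of the 14 astrocyte markers was 4093 to 5548 CPM with arsenic and 4175 to 4836 without. Most of it was VIM, which reached 19601 counts, against at most 1467 for CD44, 218 for SOX9 and 89 for GJA1. The sum thus does not speak for the list as a whole. The summed level of 7 neuron markers was 14.5 to 17.8 CPM with arsenic against 10.1 to 13.3, with 4 of the 7 at 3 counts or fewer. That of 8 epithelial markers was 64.2 to 77.4 against 46.6 to 65.5, and that of 8 oligodendrocyte markers 52.3 to 66.1 against 49.7 to 73.3. None of the 3 neuron and 2 epithelial markers tested passed an adjusted p of 0.05. Microglial, leukocyte and endothelial markers summed to less than 2 CPM in every library. Because RNA of whole cultures was measured, a smaller number of cells expressing a gene and less of its RNA per cell cannot be told apart.

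After 12 h of arsenic, the largest rise in the transcriptome was that of HMOX1, the heme-degrading enzyme heme oxygenase 1, and further rises were seen in genes of glutathione and cystine supply, the integrated stress response, amino acid metabolism and a few metal-binding proteins. Fewer genes fell than rose. Of 12341 genes tested, 80 were differentially expressed upward, or 0.648%, and 26 downward, or 0.211%, given an adjusted p under 0.05 by edgeR and a change of more than 1 in either direction on the log2 scale (LFC, the log2 fold change). Without a limit on the fold, 292 genes were higher (2.37%) and 215 lower (1.74%). The median LFC was 1.41 over the 80 genes, -1.30 over the 26 and -0.00 over all genes tested. The genes that rose had a median of 9.56 CPM in non-treated cells, against 21.7 for all genes tested, and those that fell had 23.4. The 3 arsenic libraries lay wholly above the 3 non-treated ones for 78 of the 80 genes and wholly below for all 26, while 10.1% of all genes tested were separated upward and 9.27% downward. Of the 80 genes, 72 were protein-coding and 7 were lncRNAs. Genes with few counts made up 12 of the 80 and 5 of the 26, with a mean under 20 counts over the 6 libraries.

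**Figure D1:**
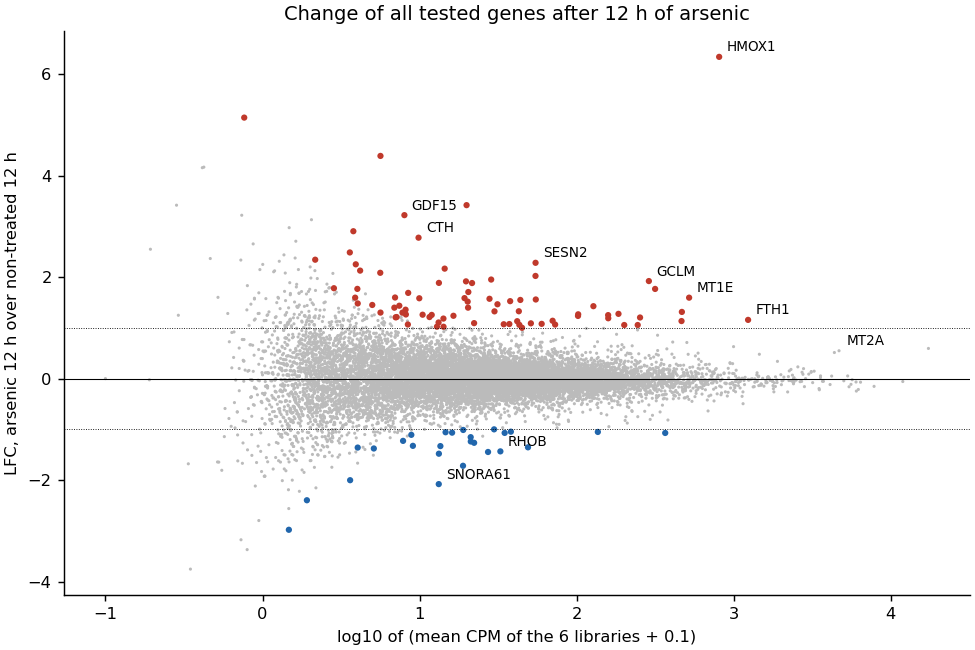
LFC of every gene tested, arsenic 12 h over non-treated 12 h, against the log10 of its mean level in CPM plus 0.1, with dotted lines at an LFC of 1 and -1 and called genes colored. HMOX1 stands alone at 6.34, most genes lie near 0 and called rises outnumber called falls, 80 to 26.

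Among targets of NRF2, 20 of 36 tested genes rose past the adjusted p, 9 of them with an LFC above 1, and none fell. The median LFC of these genes was 0.63 and 35 of the 36 values were positive. HMOX1 (chr22:35380361-35394214, GRCh38) was at 1634, 1666 and 1483 CPM in arsenic replicates 1 to 3 and at 18.7, 19.1 and 21.0 CPM in the non-treated replicates. The groups were far apart, at an LFC of 6.34 (standard error 0.17, adjusted p = 6.01e-41) or a fold of 81.0. FTH1, the heavy chain of ferritin, which stores the iron that heme breakdown sets free, measured 1750.2, 1662 and 1697 CPM against 794, 753 and 743, at an LFC of 1.16 (standard error 0.08, adjusted p = 1.91e-19). All 3 arsenic libraries were above all non-treated ones, although 26.1% of the 50-base words near the 3′ end of the FTH1 transcript also occurred in another gene, a processed copy. FTL, the ferritin light chain, rose less, with an LFC of 0.63 (adjusted p = 3.81e-08). Of the heme and iron list as a whole, 4 of 21 genes rose and 1 fell, and its median LFC was 0.11.

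Some of the genes that supply glutathione rose next to these. GCLM, the modifier subunit of the rate-limiting enzyme of glutathione synthesis, was at 447, 453 and 467 CPM with arsenic and at 113, 109 and 139 CPM without. Its libraries did not overlap, and the LFC was 1.92 (standard error 0.09, adjusted p = 6.81e-26). SLC7A11, the light chain of the cystine importer xCT, rose from 135, 152 and 144 CPM to 453, 510.4 and 500.1 CPM (LFC 1.77, standard error 0.11, adjusted p = 6.84e-21). SLC3A2, which is the heavy chain of this importer, measured 357, 367 and 334 CPM with arsenic against 181, 150.4 and 128 (LFC 1.20, adjusted p = 3.2e-15). Both chains of the importer were thus separated from the non-treated libraries in all replicates. The glutathione list holds 23 tested genes, of which 4 rose, namely CTH, GCLM, CHAC1 and GSR, and its median LFC was 0.26. GSR, the reductase that regenerates glutathione, had an LFC of 0.55 (adjusted p = 0.00266), which became 0.46 (adjusted p = 0.0533) without non-treated replicate 2.

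Other NRF2 targets rose from low or moderate levels. OSGIN1, an oxidative stress-induced growth inhibitor, was at 25.8, 23.9 and 21.0 CPM against 5.59, 2.16 and 7.60 (LFC 2.17, standard error 0.30, adjusted p = 2.6e-07). The aldo-keto reductase AKR1C2, which reduces ketosteroids and reactive carbonyls, was at 3.36, 6.61 and 7.89 CPM against 0.559, 1.24 and 1.31 (LFC 2.49, standard error 0.52, adjusted p = 0.000883). Its groups did not overlap, but 34.9% of the words near its 3′ end are shared with close copies, and its level cannot be fully told from theirs. Against the non-treated libraries of 6, 12 and 24 h together, the LFC of AKR1C2 was 1.54. TXNRD1, the cytosolic thioredoxin reductase and a selenoprotein, was at 262, 302 and 426 CPM against 151, 200.1 and 126 (LFC 1.06, standard error 0.15, adjusted p = 2.58e-07). Arsenic replicate 3 was the highest of these, and without it the LFC was 0.83, while it was 0.91 without non-treated replicate 3. NQO1, a quinone reductase long used as a marker of NRF2, changed little in size but passed the test, with an LFC of 0.48 (adjusted p = 1.88e-05). Of 18 tested selenoproteins TXNRD1 rose and SELENOT, of the endoplasmic reticulum, fell (LFC -0.63, adjusted p = 0.000691), and the median was 0.00.

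**Figure D2:**
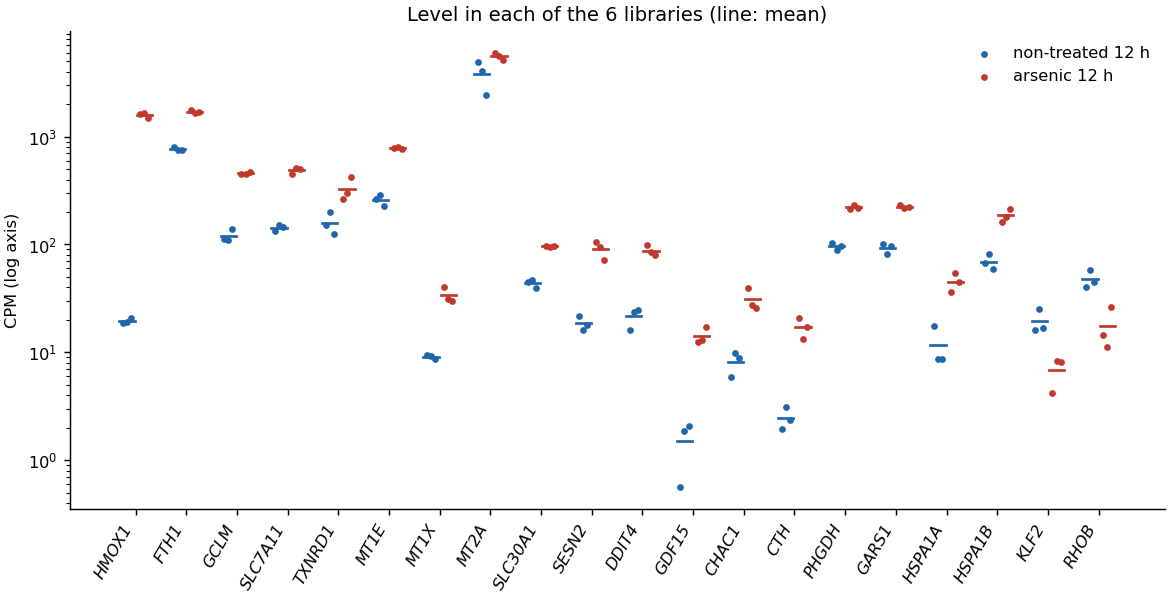
Level in CPM on a log axis of genes that rose or fell, with 1 point for each of the 3 arsenic and 3 non-treated libraries and a line at the group mean. HMOX1 moves from about 20 to over 1400 CPM, and the points of both groups stay apart for every gene shown, with MT2A the closest to touching.

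The promoters of called genes are shown because they let the letters of the response elements be read beside the changes. RefSeq promoter windows (GRCh38.p14, 250 bases before to 50 after the annotated start) were found for 58 of the 80 genes that rose and 19 of the 26 that fell. The ARE core TGACNNNGC, searched on both strands, was in 21 of the 58, or 36.2%, and in 1 of the 19, or 5.26%, against 15.2% of the tested genes with a window and 13.6% of all 27305 windows. Within the NRF2 list it was in 2 of 6 windows of called genes (33.3%) and in 5 of 22 of tested genes not called (22.7%). These shares are a description, and a match is not a binding site. The search found a core in the windows of GCLM (chr1:93909381-93909680, minus strand, motif 34 bases before the start) and TXNRD1 (chr12:104215529-104215828, plus strand, 99 and 8 bases before the start), in capitals below.
GCLM: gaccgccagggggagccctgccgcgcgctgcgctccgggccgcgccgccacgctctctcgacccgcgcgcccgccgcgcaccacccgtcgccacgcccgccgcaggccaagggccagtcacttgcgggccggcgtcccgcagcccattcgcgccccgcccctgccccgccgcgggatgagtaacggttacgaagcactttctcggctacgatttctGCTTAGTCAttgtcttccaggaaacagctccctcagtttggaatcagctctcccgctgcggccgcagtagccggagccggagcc
TXNRD1: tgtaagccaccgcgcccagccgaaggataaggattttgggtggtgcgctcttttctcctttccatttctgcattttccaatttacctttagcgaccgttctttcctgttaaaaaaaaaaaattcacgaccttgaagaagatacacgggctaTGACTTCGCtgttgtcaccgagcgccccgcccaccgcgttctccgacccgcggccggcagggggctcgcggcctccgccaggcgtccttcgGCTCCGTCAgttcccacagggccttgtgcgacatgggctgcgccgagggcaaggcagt

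Metal-binding proteins gave a smaller set of changes. Of 11 metallothioneins, which chelate zinc and other metals through cysteines, 4 were tested and 2 rose. MT1E was at 777, 799 and 766 CPM with arsenic and 263, 286 and 226 CPM without (LFC 1.60, standard error 0.11, adjusted p = 1.86e-19). MT1X, a less abundant member, was at 40.4, 31.3 and 29.7 CPM against 9.51, 9.26 and 8.64 (LFC 1.88, standard error 0.20, adjusted p = 1.25e-10), with 34.7% of its 3′ words shared with other genes. In both genes the lowest arsenic library was well above the highest non-treated one. MT2A, the most abundant metallothionein of the line, was at 5952, 5619 and 5094 CPM against 4901, 4042 and 2451. Its groups did not overlap either, but the non-treated libraries spread widely and the LFC of 0.55 (standard error 0.19) did not pass the test (adjusted p = 0.0845). It passed in 4 alternatives. The LFC of MT2A was 0.78 (adjusted p = 0.0179) without non-treated replicate 1, the highest of the 3, and 1.10 (adjusted p = 1.7e-08) with the non-treated libraries of 6, 12 and 24 h pooled. The adjusted p was 3.69e-11 without a filter on low counts and 0.033 with only the 6 libraries. MT1B was tested on counts in other groups and was at 0 in these 6 libraries.

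SLC30A1, the zinc exporter of the plasma membrane, was the only member of 16 tested zinc transporters to rise. It measured 97.8, 94.0 and 97.6 CPM with arsenic and 45.3, 46.9 and 39.3 CPM without (LFC 1.14, standard error 0.13, adjusted p = 1.19e-09), and the replicates of each group were close together. The zinc importer SLC39A10 was at 10.9, 8.05 and 11.3 CPM against 20.1, 18.5 and 17.5, without overlap, and its LFC of -0.89 (standard error 0.28) missed the threshold (adjusted p = 0.0616). The importer SLC39A14 had an LFC of -0.03 and the factor MTF1 itself one of 0.05, neither past the test. Of 11 tested genes that move or metabolize arsenic, none rose and 1 fell. The latter was SLC20A1, a phosphate importer, at 152, 164 and 150.2 CPM against 220.1, 218 and 230.2 (LFC -0.52, adjusted p = 5.56e-05). ABCC1, an exporter of glutathione conjugates, had an LFC of 0.07 and did not pass.

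The MRE letters searched were TGCACNC and TGCGCNC on both strands. They are short and common, in 39.4% of tested genes with a window, 29.3% of all windows, 24 of the 58 genes that rose (41.4%) and 4 of the 19 that fell (21.1%), so their share among the rises was close to that among all genes. They are shown for the 2 called metal genes that had a window and held them. Tested metallothioneins that were not called held them in 2 of 2 windows (100%), and such zinc transporters in 4 of 13 (30.8%). MT1X (chr16:56682220-56682519, plus strand) held 4 copies, 150, 122, 78 and 53 bases before the start, and SLC30A1 (chr1:211579112-211579411, minus strand) held 1 copy 49 bases before and 1 copy 24 bases after it.
MT1X: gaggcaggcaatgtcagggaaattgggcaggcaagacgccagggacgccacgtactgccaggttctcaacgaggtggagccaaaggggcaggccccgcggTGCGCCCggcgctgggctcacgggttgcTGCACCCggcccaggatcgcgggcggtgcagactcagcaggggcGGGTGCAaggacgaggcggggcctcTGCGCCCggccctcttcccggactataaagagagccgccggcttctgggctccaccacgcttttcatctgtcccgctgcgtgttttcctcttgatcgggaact
SLC30A1: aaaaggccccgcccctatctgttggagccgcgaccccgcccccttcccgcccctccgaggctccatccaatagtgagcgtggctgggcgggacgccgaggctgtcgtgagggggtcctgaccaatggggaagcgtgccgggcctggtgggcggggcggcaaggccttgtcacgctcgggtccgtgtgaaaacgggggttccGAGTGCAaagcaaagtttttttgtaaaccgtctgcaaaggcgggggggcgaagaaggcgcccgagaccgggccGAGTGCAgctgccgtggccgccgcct

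Genes of the integrated stress response formed the list with the most calls. Of 27 tested members 21 rose, 16 of them with an LFC above 1, none fell, and the median LFC was 1.28. ATF4, the transcription factor at its center, was at 765, 721 and 514 CPM with arsenic and 279, 218 and 305 CPM without (LFC 1.31, standard error 0.13, adjusted p = 4.7e-12). Arsenic replicate 3 was the lowest of its group yet above every non-treated library. DDIT3, which encodes the pro-apoptotic factor CHOP, was at 32.8, 31.9 and 28.7 CPM against 11.2, 9.26 and 8.12 (LFC 1.71, adjusted p = 3.04e-09). TRIB3, a pseudokinase that CHOP and ATF4 induce, had an LFC of 1.56 (adjusted p = 3.12e-10), and ATF3, an ATF4-induced repressor, one of 1.58 (adjusted p = 0.000225). PPP1R15A, the regulatory subunit that directs dephosphorylation of eIF2α, had an LFC of 1.06 (adjusted p = 2.5e-06).

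The largest rises of this list were in secreted and growth-restraining products. GDF15, a stress cytokine, was near the detection limit in non-treated cells at 0.559, 1.85 and 2.10 CPM and at 12.6, 12.9 and 17.4 CPM with arsenic (LFC 3.22, standard error 0.39, adjusted p = 2.81e-09). SESN2, which restrains the kinase complex mTORC1, was at 105, 94.9 and 72.3 CPM against 21.5, 16.1 and 18.1 (LFC 2.28, standard error 0.17, adjusted p = 1.16e-16). DDIT4, a further inhibitor of mTORC1, was at 98.1, 84.5 and 80.2 CPM against 16.2, 23.5 and 24.9 (LFC 2.02, standard error 0.18, adjusted p = 1.54e-13). Arsenic and non-treated libraries were separate in all of these. CHAC1, an enzyme that degrades glutathione, was at 39.8, 27.6 and 25.8 CPM against 5.87, 9.88 and 8.90 (LFC 1.92, standard error 0.28, adjusted p = 8.99e-07). NUPR1, a stress-induced chromatin protein of low level, was at 8.97, 12.4 and 5.52 CPM against 1.68, 2.47 and 2.10, with 42.9% of its 3′ words shared with another gene. Its LFC of 2.09 (standard error 0.49, adjusted p = 0.00403) rested partly on arsenic replicate 2, without which it was 1.78 (adjusted p = 0.0513). STC2, a secreted glycoprotein, was more abundant at 274, 274 and 235 CPM against 120, 107 and 96.4 (LFC 1.28, adjusted p = 2.27e-13). With the non-treated libraries of 6, 12 and 24 h together as the reference, the LFC was 2.25 for GDF15, 2.66 for CHAC1 and 2.76 for NUPR1. GDF15 and SESN2 are also targets of p53. Of 25 tested p53 targets 5 rose, whereas CDKN1A, the p53-induced cell cycle inhibitor, had an LFC of -0.24 and MDM2, the ligase that limits p53, one of 0.00, neither past the test.

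The AARE core TGATGNAA, searched on both strands, was in 7 of the 58 windows of genes that rose (12.1%), in 0 of the 19 of genes that fell, in 1.63% of tested genes with a window and in 3.67% of all windows. Within the integrated stress response list it was in 4 of 14 windows of called genes (28.6%) and in 1 of 8 of tested genes not called (12.5%). The 3 searches were made separately, so matches may overlap. The 4 windows are those of CHAC1 (chr15:40953221-40953520, plus strand, 209 bases before the start), ATF3 (chr1:212565157-212565456, plus strand, 191 bases before), SLC3A2 (chr11:62881449-62881748, plus strand, 37 bases after) and HERPUD1 (chr16:56931892-56932191, plus strand, 176 bases before).
CHAC1: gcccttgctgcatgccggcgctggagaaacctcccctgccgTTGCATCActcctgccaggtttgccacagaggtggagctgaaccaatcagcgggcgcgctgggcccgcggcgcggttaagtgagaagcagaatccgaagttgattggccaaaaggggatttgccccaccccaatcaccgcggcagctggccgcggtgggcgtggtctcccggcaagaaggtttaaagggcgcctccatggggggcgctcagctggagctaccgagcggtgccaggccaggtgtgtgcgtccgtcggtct
ATF3: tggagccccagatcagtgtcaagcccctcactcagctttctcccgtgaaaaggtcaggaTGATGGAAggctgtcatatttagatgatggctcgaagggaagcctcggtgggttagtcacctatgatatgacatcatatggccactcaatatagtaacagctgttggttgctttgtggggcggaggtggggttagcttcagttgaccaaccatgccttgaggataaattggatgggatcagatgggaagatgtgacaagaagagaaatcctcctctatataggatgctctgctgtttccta
SLC3A2: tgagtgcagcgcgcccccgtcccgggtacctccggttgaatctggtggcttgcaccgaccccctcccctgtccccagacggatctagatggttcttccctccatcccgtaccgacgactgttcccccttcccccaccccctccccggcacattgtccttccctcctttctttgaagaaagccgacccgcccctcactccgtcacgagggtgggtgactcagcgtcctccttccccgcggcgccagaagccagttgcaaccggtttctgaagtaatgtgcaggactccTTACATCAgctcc
HERPUD1: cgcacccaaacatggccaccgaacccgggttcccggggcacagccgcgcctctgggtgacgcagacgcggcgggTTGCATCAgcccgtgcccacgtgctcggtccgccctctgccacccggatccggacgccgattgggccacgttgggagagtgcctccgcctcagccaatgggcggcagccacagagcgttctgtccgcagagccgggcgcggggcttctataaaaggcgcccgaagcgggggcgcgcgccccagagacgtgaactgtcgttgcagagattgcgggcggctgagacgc

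Amino acid supply rose along with these factors, on lists that share members with those above. CTH is also on the glutathione list, and SLC3A2 is on both the transporter and the integrated stress response lists. The counts of these lists are thus not independent. Of 22 tested genes of amino acid synthesis and folate-linked carbon supply 9 rose, of 21 cytosolic tRNA synthetases 10, and of 20 amino acid transporters 10, and none of the 3 lists had a member that fell. Their median LFCs were 0.22, 0.32 and 0.54. CTH, the enzyme that makes cysteine from cystathionine, was at 20.7, 13.2 and 17.1 CPM with arsenic and 1.96, 3.09 and 2.36 CPM without (LFC 2.78, standard error 0.35, adjusted p = 1.2e-08). PHGDH, the first enzyme of serine synthesis, was at 213, 232 and 217 CPM against 103, 89.6 and 97.4 (LFC 1.19, standard error 0.09, adjusted p = 3.14e-17). Both were separate in all libraries. The next enzyme of that pathway, PSAT1, had an LFC of 0.85 (adjusted p = 5.22e-07), GPT2, a mitochondrial alanine transaminase, one of 1.23 (adjusted p = 3.34e-12), and ALDH1L2, a mitochondrial folate enzyme, one of 1.69 (adjusted p = 0.00166). Of transporters, SLC6A9, which carries glycine, had an LFC of 1.59 (adjusted p = 6e-07) and SLC1A4, which carries alanine, serine and cysteine, one of 1.55 (adjusted p = 7.73e-11). GARS1, the glycyl-tRNA synthetase, was at 229.8, 217 and 224 CPM against 102, 81.5 and 97.4 (LFC 1.25, standard error 0.10, adjusted p = 3.58e-15) and was the only synthetase with an LFC above 1. CARS1, the cysteinyl-tRNA synthetase, came next with 0.99 (adjusted p = 2.34e-11).

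Protein folding genes of the cytosol rose widely but by little. Of 38 tested chaperones and cochaperones 17 rose and none fell, 36 had a positive LFC and the median was 0.36, yet only HSPA1A and HSPA1B exceeded an LFC of 1. HSPA1A, an inducible HSP70, was at 36.4, 54.6 and 44.7 CPM with arsenic and 17.6, 8.65 and 8.64 CPM without (LFC 1.95, standard error 0.21, adjusted p = 1.11e-10). HSPA1B, its neighboring near-identical copy, was at 163, 181 and 214 CPM against 67.4, 81.8 and 58.9 (LFC 1.43, standard error 0.16, adjusted p = 1.51e-10), and of the 50-base words near the 3′ ends 6.76% of those of HSPA1A were shared and 0% of those of HSPA1B. HSP90AA1, the inducible HSP90 and among the most abundant of the list, was at 21428, 20791 and 20377 CPM against 14080, 12980 and 14396 (LFC 0.59, adjusted p = 2e-10). The small heat shock protein CRYAB had an LFC of 0.71 (adjusted p = 4.34e-10), the HSP70 cochaperone BAG3 one of 0.64 (adjusted p = 0.000551) and HSPH1, an HSP110, one of 0.55 (adjusted p = 3.33e-07). HSPA6, a strictly inducible HSP70, was at 0.841, 1.44 and 2.10 CPM against 0.559, 0.309 and 1.31, near the level of 3 counts in both groups and with overlap (adjusted p = 0.556).

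Other branches of protein quality control moved less. SQSTM1, the autophagy receptor p62, was at 677, 639.8 and 599.8 CPM against 314, 265 and 293 (LFC 1.13, standard error 0.09, adjusted p = 5.67e-16), without overlap. Of 26 tested ubiquitin and autophagy receptor genes 5 rose, with a median LFC of 0.28, and CALCOCO2, a receptor of selective autophagy, was among them at 0.87 (adjusted p = 0.000127). Only 2 of 42 proteasome subunit genes rose, with a median LFC of 0.10. In the endoplasmic reticulum, 3 of 32 genes rose. They included XBP1, the transcription factor of the unfolded protein response, at 154, 135 and 143 CPM against 55.1, 60.8 and 63.9 (LFC 1.27, standard error 0.11, adjusted p = 8.01e-15), and HERPUD1, a component of endoplasmic reticulum-associated degradation, with an LFC of 1.09 (adjusted p = 6.06e-08) that was 0.99 without arsenic replicate 3. HSPA5, the main chaperone of that compartment, was at 919.7, 992 and 882 CPM against 962, 926 and 878, an overlap of both groups (LFC 0.01, standard error 0.08).

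The genes that fell belonged mostly to no list, and 3 of the 26 did, KLF2 and BIRC3 among them. KLF2, a transcription factor of quiescent endothelium and lymphocytes that also responds early to stimuli, was at 4.20, 8.34 and 8.15 CPM against 16.2, 25.3 and 16.8 (LFC -1.48, standard error 0.30, adjusted p = 0.000585). BIRC3, an inhibitor of apoptosis and NF-kB target, was at 26.9, 22.4 and 17.9 CPM against 46.7, 46.0 and 48.2 (LFC -1.07, adjusted p = 1.83e-06), and its LFC was -0.93 without arsenic replicate 3. The arsenic libraries of both genes lay below all non-treated ones.

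Further falls were seen in signaling and structural genes of moderate level. RHOB, a stress-responsive small GTPase, was at 14.6, 11.2 and 26.6 CPM against 40.6, 57.7 and 44.8 (LFC -1.43, standard error 0.21, adjusted p = 1.19e-06). CTDSP1, a phosphatase of the RNA polymerase II tail, was at 24.4, 34.8 and 23.4 CPM against 77.5, 64.9 and 68.4 (LFC -1.35, standard error 0.18, adjusted p = 6.06e-08). Arsenic replicates lay below all non-treated ones for both. MEST, an imprinted gene of the hydrolase family, had an LFC of -1.45 (adjusted p = 5.56e-05), CAVIN2, a caveolar coat protein, one of -1.27 (adjusted p = 5.7e-05), PRRT2, a synaptic membrane protein with 36.8% of its 3′ words shared, one of -1.33 (adjusted p = 0.00344), and SEMA7A, a membrane-anchored semaphorin, one of -1.24 (adjusted p = 0.0001). SEMA7A was at -0.75 with the non-treated libraries of 6, 12 and 24 h pooled as the reference. NAA80, the actin N-terminal acetyltransferase, was at 4.20, 6.61 and 4.47 CPM against 16.8, 13.6 and 8.12, and its LFC of -1.32 (adjusted p = 0.0182) lost the call in 4 of 6 fits that left out a library. SNORA61, a small nucleolar RNA that lies inside the host gene SNHG12, was at 4.20, 6.33 and 4.47 CPM against 18.5, 28.1 and 17.3 (LFC -2.08, standard error 0.38, adjusted p = 0.000103), and all of its sequence words occur in the host transcript, so both cannot be told apart. Against the pooled non-treated libraries, the LFC of SNORA61 was -1.34.

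In further lists, most falls that passed the test were small. The immediate-early, extracellular matrix and NF-kB lists each held 1 gene with a called LFC below -1. Of 32 tested immediate-early genes 9 fell and 1 rose, with a median LFC of -0.29, and JUN, a subunit of AP-1, was at 180.2, 165 and 183 CPM against 274, 288 and 256 (LFC -0.63, adjusted p = 5.99e-08). The groups did not overlap for JUN, nor for ZFP36L2, an RNA-decay factor, with an LFC of -0.66 (adjusted p = 7.57e-07). Of 39 tested DNA replication genes 4 fell, with a median LFC of -0.21, and the helicase subunit MCM7 had the largest fall that passed, from 287, 261 and 266 CPM to 153, 167 and 124 CPM (LFC -0.88, adjusted p = 8.99e-07). Of 55 genes of G2 and mitosis 5 fell (median -0.08), and of 36 extracellular matrix genes 4 fell (median -0.18), COL1A2, a collagen I chain, by 0.52 on the log2 scale (adjusted p = 0.000423). CCN1, a matricellular protein and YAP target, fell by 0.82 on that scale (adjusted p = 9.93e-05). No member of 77 cytosolic ribosomal proteins or 13 mitochondrially encoded respiratory genes passed the adjusted p. The medians were 0.06 for glycolysis (1 of 22 fell), -0.09 for cholesterol and fatty acid synthesis (1 of 32 fell), -0.11 for tubulins (1 of 14 fell) and 0.00 for cytokine and NF-kB genes (1 of 16 rose and 2 fell). SOX9, a glial transcription factor and astrocyte marker, had an LFC of -0.65 (adjusted p = 0.00388), which was -0.55 (adjusted p = 0.0687) without arsenic replicate 1.

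Of the 80 genes that rose, 40 were in no list. HTRA3, a secreted serine protease, was at 10.1, 10.9 and 10.8 CPM with arsenic and at 1.40, 0 and 0 CPM without, at an LFC of 4.39 (standard error 0.62, adjusted p = 5.83e-07). The arsenic libraries were alike, and the fold rested on the reads of non-treated replicate 1 alone, so its size is poorly determined. For HTRA3 it was 3.79 without non-treated replicate 3 and 5.92 with the pooled non-treated libraries, and without non-treated replicate 1 both remaining libraries were at 0. The lncRNA ENSG00000261327 was at 37.0, 38.5 and 33.4 CPM against 3.64, 1.54 and 4.71 (LFC 3.42, standard error 0.32, adjusted p = 3.38e-13). NMRAL2P, an expressed pseudogene known as an NRF2 target, had an LFC of 1.89 (adjusted p = 1.38e-05). PCK2, the mitochondrial phosphoenolpyruvate carboxykinase and an ATF4 target, was at 60.8, 68.2 and 54.5 CPM against 21.3, 24.7 and 27.0 (LFC 1.33, adjusted p = 5.99e-08). TRIM16L had an LFC of 1.57 (adjusted p = 4.29e-07), SEL1L3 one of 1.53 (adjusted p = 7.57e-09) and NCOA7, a nuclear receptor coactivator with a role in oxidation resistance, one of 1.08 (adjusted p = 1.01e-06), which was 0.997 for NCOA7 without arsenic replicate 1.

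Read over time, the rises at 12 h were mostly in place at 24 h and only partly before. Each time point had its own 3 non-treated libraries. Of the 80 genes, 5 were differentially expressed upward at 3 h, where 0.0567% of all genes tested were called, 21 at 6 h, where 0.235% were, and 63 at 24 h, where 1.89% were. Their LFC was positive in 58, 69 and 77 cases and had a median of 0.27, 0.72 and 1.59 at these times. At 1.5 h the median was 0.03. Of the 26 genes that fell, none was called downward at 3 h or 6 h, where 0% and 0.0486% of all genes were, and 12 were at 24 h, where 1.43% were. Their median LFC was -0.51 at 6 h and -0.86 at 24 h, with 20 and 24 negative values. HMOX1 climbed throughout, with mean arsenic levels of 421, 1229, 1594 and 2417 CPM at the times from 3 to 24 h. The non-treated means were 22.1, 28.2, 19.6 and 12.99 CPM, so their fall after 6 h added to the later LFCs. The LFC of HMOX1 was 4.25, 5.44, 6.34 and then 7.55 at these times. Genes of amino acid supply had smaller values at 3 h. Over the same times the LFC of SLC3A2 was -0.01, 0.68, 1.20 and 1.68, and that of PSAT1 was 0.02, 0.69, 0.85 and 1.52.

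HSPA1B followed another course, described by comparing the effect at 12 h with that at 6 h, a comparison added after values of these genes had been seen. Of 38 tested cytosolic chaperones it was the only one called with a smaller effect at 12 h, and their median difference was -0.06. From 3 to 24 h, HSPA1B had LFCs of 2.30, 2.61, 1.43 and 1.60, and its effect was smaller at 12 h than at 6 h by 1.18 on the log2 scale (difference -1.18, standard error 0.22, adjusted p = 0.0017). HSPA1A was at LFCs of 2.45, 2.76, 1.95 and 1.59, with a difference of -0.80 that did not pass (adjusted p = 0.351). HSPA6 had LFCs of 4.32, 5.13, 0.94 and 3.56 over these times, and here the difference of -4.19 (standard error 1.08) had an adjusted p of 0.0692. It passed without arsenic 12 h replicate 3 (-4.56, adjusted p = 0.0479), and without non-treated 12 h replicate 3 it was -3.47 (adjusted p = 0.373), so this gene of few reads was not settled. Among all genes, 1 had a larger effect at 12 h than at 6 h (0.0081%) and 6 a smaller one (0.0486%).

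**Figure D3:**
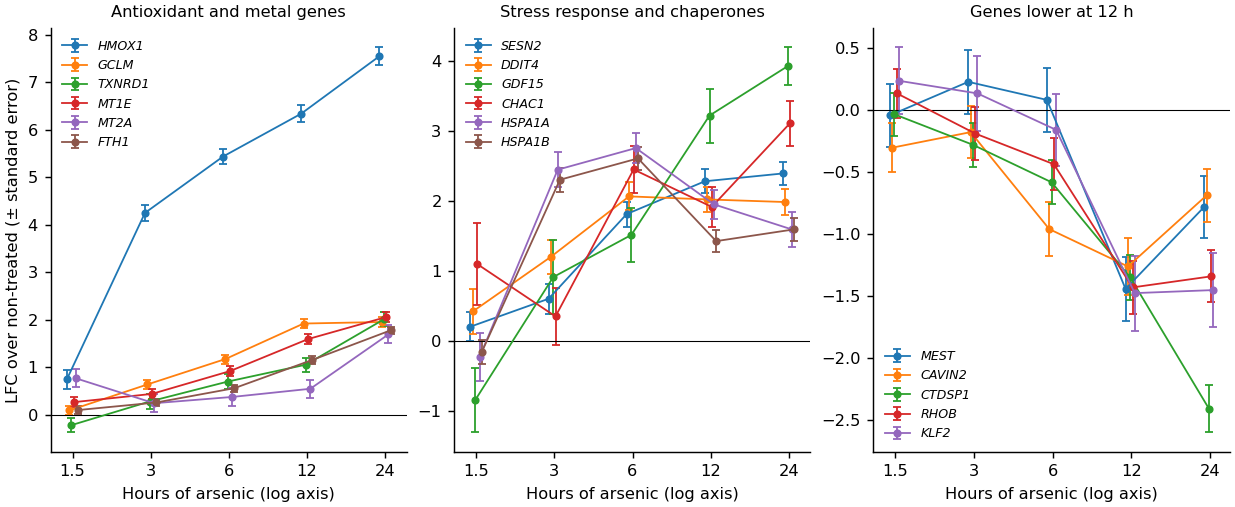
LFC of selected genes over the non-treated cells at each time with its standard error as bars, against hours of arsenic on a log axis from 1.5 to 24 h, in panels by gene group. HMOX1 keeps rising to 7.55 at 24 h, whereas HSPA1B is highest at 6 h, 2.61, and lower at 12 h, 1.43.

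Between 12 and 24 h, 17 genes (0.138%) had a larger arsenic effect at 24 h and 24 (0.194%) a smaller one. The arsenic effect on HMOX1 was larger at 24 h, by a difference of 1.21 (adjusted p = 0.00568). Mean levels of HMOX1 rose with arsenic from 1594 to 2417 CPM and fell in non-treated cells from 19.6 to 12.99 CPM. Both changes thus entered the difference. AKR1C1, an aldo-keto reductase next to AKR1C2, went from an LFC of 1.47 at 12 h to 3.14 at 24 h. That was a difference of 1.68 (adjusted p = 4.03e-06). MT2A, not called at 12 h, had an LFC of 1.69 at 24 h and a difference of 1.15 (adjusted p = 0.0118). That difference missed the threshold in 3 fits that left out a library, among them 0.92 (adjusted p = 0.0714) without non-treated 12 h replicate 1. Mean levels of MT2A with arsenic were close, 5555 CPM at 12 h and 5674 CPM at 24 h. Those of non-treated cells were 3798 and 1753 CPM, so the difference lay mainly in the non-treated cells. The ferritin light chain FTL had a difference of 0.61 (adjusted p = 0.00194). The inducible chaperone HSP90AA1 went the other way, from 0.59 at 12 h to 0.12 at 24 h (difference -0.47, adjusted p = 0.00247).

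Set directly against cells exposed to cadmium for 12 h, the arsenic response was lower in metallothioneins, inducible HSP70 genes and some immediate-early genes. The comparison holds 38 genes higher with arsenic than with cadmium (0.308%) and 118 lower (0.956%). The metallothioneins MT1E, MT1X and MT2A were lower with arsenic, and MT1B was counted with cadmium and was at 0 with arsenic. MT1E was at 5848, 7360 and 7783 CPM with cadmium, so that the arsenic libraries, with at most 799 CPM, were lower by 3.16 on the log2 scale (difference -3.16, standard error 0.11, adjusted p = 3.87e-35). For MT1X the difference was -3.46 (adjusted p = 8.41e-28), for MT2A -2.11 (adjusted p = 1.64e-13) and for SLC30A1 -1.32 (adjusted p = 1.89e-13). HSPA6 was at 291, 288 and 304 CPM with cadmium and at most 2.10 with arsenic, where its level rests on 3, 5 and 8 reads, so the size of that difference is not given. HSPA1A was lower with arsenic by a difference of -3.86 (adjusted p = 3.4e-30). Of the cytosolic chaperones 6 of 38, with HSPA6 among them, and of the immediate-early genes 9 of 32 were lower with arsenic, and none was higher. IER3, an early gene that restrains cell death, was at 0.560, 0.863 and 1.05 CPM with arsenic, near the level of 3 counts, and at 16.3, 15.6 and 25.3 CPM with cadmium.

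A smaller group of genes was higher with arsenic than with cadmium. HMOX1 was at 907, 1039.6 and 911 CPM with cadmium, below all arsenic libraries, a difference of 0.74 (standard error 0.13, adjusted p = 1.88e-05). CHAC1 was at 12.7, 10.4 and 7.02 CPM with cadmium (difference 1.64, adjusted p = 3.47e-05), SLC6A9 differed by 1.25 (adjusted p = 9.72e-05) and ATF5, a factor of the ATF4 family, by 1.22 (adjusted p = 6.51e-09). GDF15 went the other way with a difference of -1.01 (adjusted p = 0.00636) that was -0.92 (adjusted p = 0.054) without arsenic replicate 1. Within the integrated stress response list, 2 genes were higher and 3 lower with arsenic, and the median difference was 0.18.

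**Figure D4:**
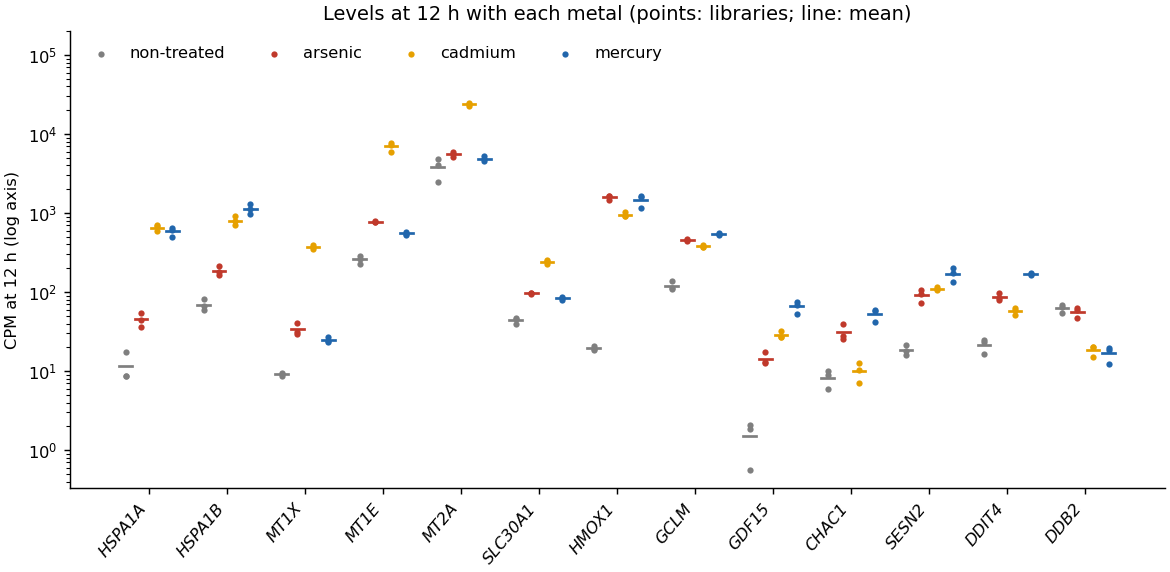
Level at 12 h in CPM on a log axis in each of the 3 non-treated, arsenic, cadmium and mercury libraries for genes that differed between metals. HSPA1A lies between 36.4 and 54.6 CPM with arsenic and between 493 and 698 CPM with cadmium or mercury, while HMOX1 is at 907 CPM or more with all 3 metals.

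Against mercury at 12 h, 43 genes were higher with arsenic (0.348%) and 124 lower (1%). Chaperones again stood lower with arsenic in 8 of 38 cases. HSPA6, again with few reads in the arsenic libraries, was at 313, 407 and 390 CPM with mercury. HSPA1B was at 969, 1289.5 and 1125 CPM (difference -2.60, adjusted p = 6.04e-23) and ZFAND2A, an arsenite-inducible regulator of the proteasome, differed by -3.15 (adjusted p = 1.36e-18). Stress factors were lower with arsenic as well, GDF15 by a difference of -2.20 (adjusted p = 1.09e-10) and ATF3 by one of -1.93 (adjusted p = 5.76e-09), as was AKR1C1 (difference -1.47, adjusted p = 6.66e-13). HMOX1 did not pass, at 1169, 1665 and 1592 CPM with mercury, with a difference of 0.11 (standard error 0.12, adjusted p = 0.672). MT1E was slightly higher with arsenic than with mercury, at 533, 576 and 548 CPM with the latter (difference 0.50, standard error 0.10, adjusted p = 0.000492). DDB2, a DNA damage recognition protein, differed in the same direction from both metals, by 1.74 from mercury (adjusted p = 1.84e-09) and by 1.57 from cadmium (adjusted p = 2.53e-08), and its level with arsenic was 62.5, 58.7 and 46.3 CPM against 68.2, 65.5 and 55.0 in non-treated cells. The doses of the metals differed in molar terms, so these contrasts compare the exposures as given.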

How the data were processed

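QuantSeq 3′ mRNA libraries, which read the 3′ end of polyadenylated RNA, were sequenced by the authors, aligned to GRCh38 with STAR 2.7.9a and counted per gene on the sense strand, leaving out reads over more than 1 gene. The deposited values are raw counts of 62703 genes in 60 libraries, 28620 of them with a count. The 92 spike-in entries were at 0. Groups were taken from the sample titles.

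Genes passing filterByExpr (minimum count 10, minimum total 15) were tested, 12341 in all. Library sizes were scaled by TMM (factors 0.934 to 1.03), and edgeR 4.0.16 (R 4.3.3) fitted all 60 libraries together with 1 coefficient per group. Contrasts were tested by quasi-likelihood, with Benjamini-Hochberg adjustment over all genes tested. All p-values given are two-sided and adjusted in this way. The biological coefficient of variation was 0.120. Replicates of the 6 libraries correlated at 0.971 to 0.976 and differed by more than sampling noise (chi-square per degree of freedom 2.50 to 5.01). DESeq2 1.42.0 and edgeR's glmTreat were alternatives.

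Genes were named by the 12 largest rises, the 10 largest falls, up to 4 called members of each list, genes the study names and the 3 largest differences per contrast, with a mean of at least 20 counts for rises, falls and differences. The genes ATF4, DDIT3, NQO1, HSP90AA1 and some others were chosen after their values were seen. The members and lists were chosen with earlier results of these data known.
Some items are not reported here.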

Additional observations from a re-analysis of the deposited data

Results flagged for a closer look

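The effect of arsenic over non-treated cells differed between 24 h and 12 h in some genes, by the test of the difference itself (edgeR, adjusted p under 0.05 and a difference of more than 1 on the log2 scale). It was larger at 24 h for 17 genes and smaller for 24. Among called genes whose mean count over the libraries compared reached 20, the 3 largest differences in each direction are given, and larger ones were called among genes with fewer counts. GNG5, a G protein γ subunit, differed by 2.58, the pseudogene COX6CP1 by 2.39 and NSMCE3, a subunit of the SMC5/6 complex, by 2.26, each higher at 24 h. CCDC134 differed by -1.79, LINC00452 by -1.69 and RNF150 by -1.61. Of the 50-base words near the 3′ end of GNG5, 38.6% also occur in other genes. The adjusted p of GNG5 missed the threshold in 7 of its 19 alternatives, that of COX6CP1 in 10 of 17, that of NSMCE3 in 8 of 18 and that of LINC00452 in 5 of 19.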

How the results depend on the processing

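The counts of 80 genes higher and 26 lower stayed within 1.5 times under DESeq2's size factors (79 and 26), no filter (74 and 24), a mean of at least 20 counts (65 and 24), DESeq2 (82 and 29), a fit of the 6 libraries alone (68 and 23) and pooled non-treated libraries of 6, 12 and 24 h (102 and 37). Leaving out 1 library gave 67 to 83 and 16 to 30, the 16 without non-treated replicate 1. In total 40 genes higher and 9 lower kept their call in every alternative except glmTreat, a test that the LFC exceeds 1, which called 13 and 0. The 507 genes past the adjusted p alone became 908 with pooled non-treated libraries, 13 by glmTreat and 323 to 457 without 1 library, the lowest without non-treated replicate 2. By glmTreat 17 genes differed from cadmium, 19 from mercury, 0 between 24 and 12 h and 0 between 12 and 6 h, against 156, 167, 41 and 7, and leaving out 1 library gave 111 to 188, 118 to 215, 15 to 128 and 2 to 15. The contrast of 24 with 12 h thus turns on single libraries, with 15 genes without non-treated 12 h replicate 2 and 128 without non-treated 24 h replicate 3, and was 18 with only the libraries compared and 61 without a filter. The contrast of 12 with 6 h gave 22 without a filter and 3 by DESeq2. The causes were not tested.

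Deviations of same-numbered libraries of both groups from their group means were weakly correlated (r = 0.0837, -0.0333 and -0.0495). Differently numbered libraries ranged from -0.0980 to 0.126. With 3 libraries per group these values cannot settle whether the numbers pair them. With a replicate block, 75 genes were higher and 24 lower, 464 passed the adjusted p alone, 141 differed from cadmium, 157 from mercury, 33 between 24 and 12 h and 4 between 12 and 6 h.

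Of genes not past the test, some changed sign without 1 library. The LFC of ABCC1 ranged from -0.20 without non-treated replicate 1 to 0.28, that of MTF1 from -0.066 without arsenic replicate 2 to 0.12, that of SLC39A14 from -0.20 to 0.080 without arsenic replicate 1 and that of CNP, an oligodendrocyte marker, from -0.21 to 0.052 without non-treated replicate 1. SLC39A14 was at 0.097 with pooled non-treated libraries. SLC39A10 passed with those libraries (adjusted p = 0.00394), without a filter (0.0374), by DESeq2 (0.0398), with only the 6 libraries (0.0386) and with the replicate block (0.042).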

Other observations

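Of the genes on the lists, 117 were not tested for want of counts. In 96 of them no library of the 6 held more than 3 counts, and 41 overlap another gene on the same strand, where the counting left out shared reads. Among them are genes known to be abundant in many cells: SRXN1, the sulfiredoxin that NRF2 induces, and ALDOA, a glycolytic aldolase, were at 0 in all 6 libraries, the asparagine synthetase ASNS reached at most 3 counts, the glutathione peroxidase GPX1 at most 5 and GABARAP, an autophagy protein, at most 7. Each of these 5 genes overlaps 1 other gene on its strand. CBS, an enzyme of cysteine synthesis, and MT1F, a metallothionein, were also at 0, without such an overlap. Changes of these genes were not detectable here.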
